A study of Drosophila melanogaster with 13 samples.

Results

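The comparison of dany mutant testes with control testes rested on 7 of the 13 microarrays of the study, chosen by the genotype that the labels give: 3 dany arrays and 4 control arrays. Control males had a w[1118] X chromosome and the 2R deficiency Df(2R)BSC802 over +. The dany males had the same X chromosome and the same deficiency, here over the mutant allele dany[ex11]. Both groups therefore carried 1 copy of the deficiency, and any effect of losing 1 copy of the genes it removes was present on both sides. A single dany allele was used, so effects of other differences between the chromosome that carries it and the intact control chromosome cannot be told apart from those of dany. Testes were dissected from adults 0 to 2 days old raised at 25 °C, and each array held RNA of 80 pooled testes that was labelled with Cy3. Arrays of 3 meiotic arrest mutants, 2 each, entered as a further reference: sa testes had sa[1], on a chromosome with th and red, over sa[2], on a chromosome with ru, h and ca. The aly testes had aly[2] over aly[5], both on chromosomes with red and e, in w* males. The topi testes had topi[Z3-0707] over topi[Z3-2139] with bw. Their backgrounds differ from that of dany, so background and mutation cannot be told apart in that part of the comparison.

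The fly testis is a tube in which germline stem cells at the tip give rise to cysts of spermatogonia, then to primary spermatocytes that grow for days, pass through meiosis and become elongating spermatids. Somatic cyst cells enclose each cyst. Primary spermatocytes switch on a large, testis-specific transcription programme, and most of the transcripts that spermatids need are made before meiosis and stored. That programme depends on testis-specific counterparts of TFIID subunits (to which sa belongs) and on the testis meiotic arrest complex, tMAC (to which aly and topi belong). dany encodes a nuclear protein made in spermatocytes. In pooled whole testes a lower level can come from fewer cells of a type or from less RNA per cell, and these cannot be told apart.

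A level below is the log2 processed signal of a probe minus the 75th percentile of its array. It can be compared between arrays for the same gene, not between genes. A target (1 transcript or gene on the array) was called higher or lower if it differed 2-fold or more with a limma adjusted p below 0.05. In all, 19758 targets were tested and 8627 (43.7%) called, 5542 (28%) of them higher in dany and 3085 (15.6%) lower. This split depended on the scaling: 3688 were higher and 7334 lower with median scaling, and 5661 and 821 with spike-in scaling. A gene symbol could be given to 360 tested targets, of which 70 (19.4%) were called higher and 71 (19.7%) lower (46 and 170 with median scaling, 70 and 22 with spike-in scaling). No probe could be assigned to any of the 4 mutated genes, so a mutant's label could not be checked by its own gene. The share of probes above background was 60.9%, 69.1%, 65.6% and 62.6% on the control arrays and 75.3%, 76.5% and 76.2% on the dany arrays. Every dany array was above every control array (exact two-sided permutation test, p = 0.0571, the smallest that 4 against 3 arrays allow). None of the markers fixed for early germ cells or spermatocytes was matched on the array. Of 13 spermatid markers 3 were matched, and f-cup was at 4.74 to 5.03 on the control arrays.

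Slides 1, 3 and 4 each held a control and a dany array, while slide 2 held control 2 and no dany array. Each shared slide gave its own estimate, with no array used more than once. Over all targets the median difference was -0.01, 0.08 and 0.12 on slides 1, 3 and 4. Targets called higher had a median of 2.16, 2.42 and 2.52 on these slides, and targets called lower had a median of -1.72, -1.78 and -1.69. The calls used the arrays of these slides, so the direction of these medians was set by the choice of targets. The difference was at least 2-fold upwards on all 3 slides for 4775 targets (24.2%) and at least 2-fold downwards for 3232 (16.4%). Across targets the differences of one slide correlated with those of another at Pearson r of 0.935 to 0.955 and Spearman rho of 0.914 to 0.939. Targets are not independent, and these pairs share no array. Of the 141 called targets with a symbol, 136 were also called with slide as a block, beside 8422 of all 8627 called targets. Both fits use the same arrays. The 2 groups did not overlap for 60.2% of all targets (33.6% with dany above, 26.7% below).

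**Figure D1:**
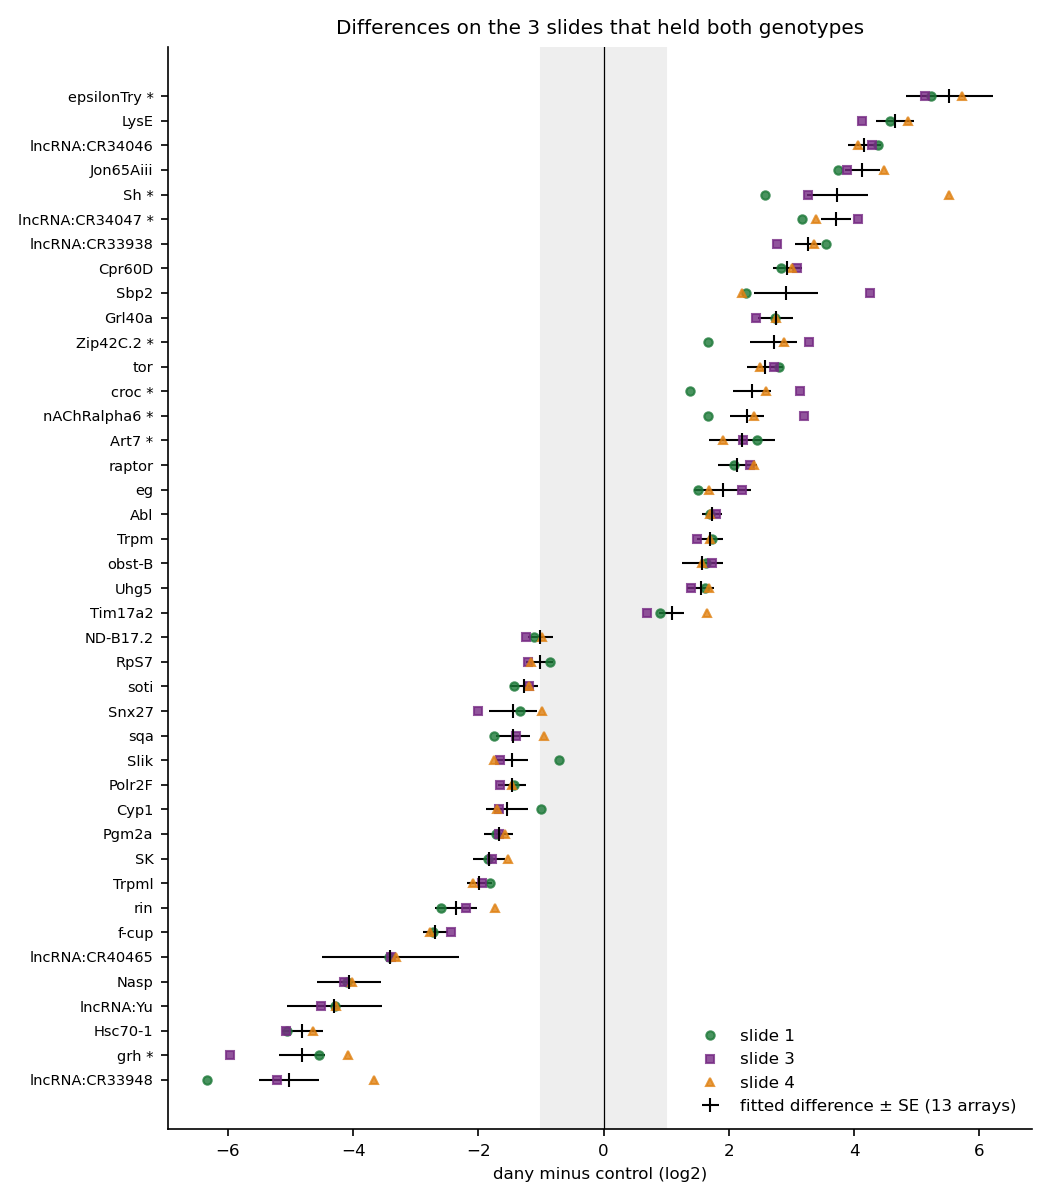
Difference between dany and control (log2, x axis) for the genes described that were chosen by the rule and called, on slides 1, 3 and 4 (coloured symbols) and in the fit to 13 arrays (tick with its SE); the grey band marks less than a 2-fold change. An asterisk marks genes with no signal above background in 1 of the groups, whose plotted differences are not measured sizes. Fitted values run from -4.81 for Hsc70-1 to 4.16 for lncRNA:CR34046 among plotted genes above background on every array.

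The falls with a name included a heat shock family chaperone, a histone chaperone and genes transcribed in spermatids. Hsc70-1 encodes an Hsp70-family chaperone. Its level was 2.33, 1.63, 2.07 and 1.78 on the control arrays and -2.73, -3.002 and -2.86 on the dany arrays. The 2 groups were far apart, with a mean of 1.95 ± 0.31 (SD, n = 4) in control and -2.86 ± 0.14 (SD, n = 3) in dany. The gene was 28.1-fold lower (log2 difference -4.81, 95% interval -5.54 to -4.09, limma adjusted p = 6.29e-07). The heat shock and chaperone list had 3 tested genes, of which 2 were called lower, the second being Cyp1, a cyclophilin, at -1.54 (adjusted p = 0.00255). Cyp1 stood above background on 2 of 4 control and 1 of 3 dany arrays, so its size is poorly measured, and its call was lost with spike-in scaling.

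Nasp, a histone chaperone, was the 1 tested gene of the list of histones and histone chaperones. It lay at -0.15, -0.28, -0.31 and -0.21 in control and at -4.25, -4.45 and -4.23 in dany. Replicates of a genotype lay close together, with an SD of 0.07 in control and 0.12 in dany, and the groups were far apart. The fall was 16.8-fold (log2 -4.07, SE 0.51, adjusted p = 5.85e-05), and the slides gave -4.10, -4.14 and -4.01.

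Comet and cup genes are transcribed after meiosis, unlike most spermatid transcripts, and their RNAs collect at the distal end of elongating spermatids. Of the 23 genes listed 3 were tested, and 2 were called lower. f-cup was at 4.74, 5.03, 4.93 and 4.99 in control and at 2.00, 2.49 and 2.21 in dany, a 6.43-fold fall (adjusted p = 1.05e-06). soti encodes a regulator of caspase activity in spermatids. Its level was -4.92, -4.96, -4.68 and -5.20 in control and -6.35, -5.88 and -6.39 in dany (2.40-fold lower, adjusted p = 0.00067). The groups did not overlap for either gene. The soti call was lost when arrays were scaled on spike-in probes.

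hale, the third comet and cup gene, differed widely between slides. The control and dany arrays of slide 1 were also both replicate 1 and the only arrays of these groups from their scan day. Slide, scan day and replicate number cannot be told apart there. Its level was -0.91, -4.57, -4.34 and -3.93 in control and -3.39, -7.21 and -6.66 in dany. Both arrays of slide 1 were high, so the dany array of slide 1 lay above every control array of the other slides, and the groups overlapped. The fit with no slide term gave -2.32 (SE 1.35, adjusted p = 0.169). Within slides the difference was -2.49, -2.87 and -2.73, and with slide as a block it was -2.70 (adjusted p = 2.58e-06). hale stood above background on 2 of 3 dany arrays.

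puc, which encodes a phosphatase that limits JNK signalling and was listed as a marker of cyst and hub cells, had the same form. It was at -3.34, -5.24, -5.54 and -4.18 in control and at -4.78, -6.79 and -5.33 in dany, with overlapping groups and no call (-1.06, adjusted p = 0.226). Slides 1, 3 and 4 gave -1.44, -1.25 and -1.15, and the slide block gave -1.27 (adjusted p = 0.000899). Neither of the other tested markers of these cells was called. eya, a transcriptional cofactor of cyst cells, differed by 0.38 (adjusted p = 0.131), and ptc, the Hedgehog receptor, by 0.64 (adjusted p = 0.261). The summed signal of the 3 genes, on the log2 scale, was -3.88 to -2.85 in control and -3.71 to -3.45 in dany, inside the control range. Within slides, control and dany were at -2.85 and -3.45 on slide 1, -3.88 and -3.71 on slide 3, and -3.29 and -3.53 on slide 4.

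**Figure D2:**
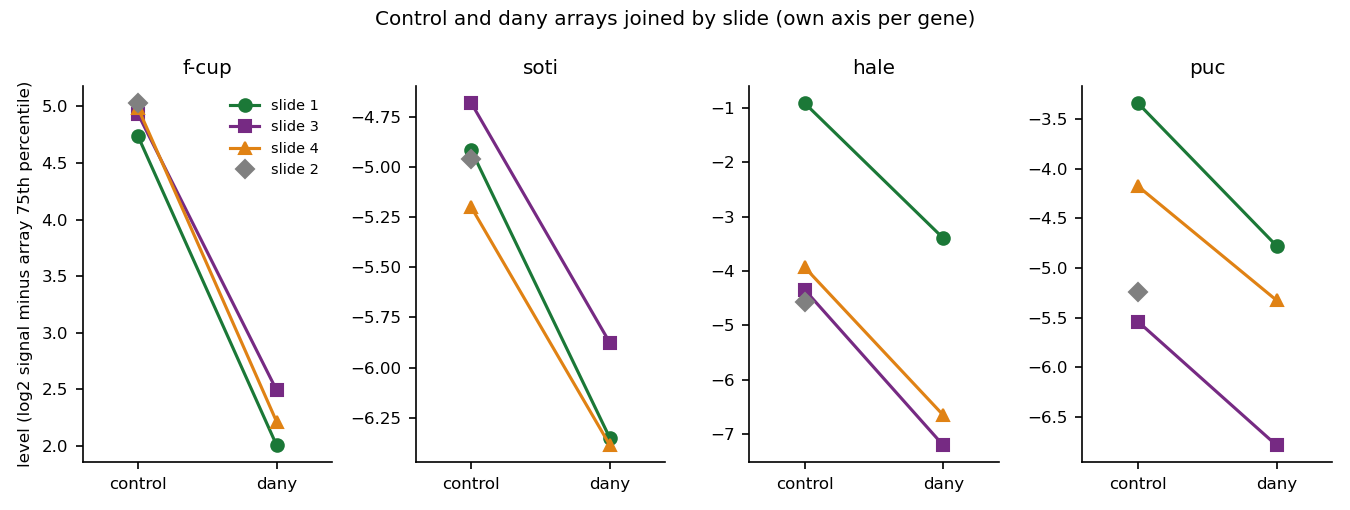
Levels of f-cup, soti, hale and puc (y axis, log2 signal minus the array's 75th percentile, a separate axis for each gene) on control and dany arrays, with lines joining the arrays of a slide and a grey diamond for control 2. All 12 lines fall from control to dany, and for hale and puc the slide 1 arrays sit highest within each genotype.

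Among other named genes with signal above background on every array of both groups, the falls covered metabolism, transcription, signalling and membrane traffic. Pgm2a, a phosphoglucomutase gene, was at 6.29, 6.16, 6.28 and 5.63 in control and 4.58, 4.61 and 4.06 in dany (3.20-fold lower, adjusted p = 0.000125). Polr2F, a small subunit shared by RNA polymerases, was at 4.99, 4.81, 5.43 and 4.69 against 3.55, 3.78 and 3.22 (2.75-fold lower, adjusted p = 0.000273). In neither gene did the groups overlap: the lowest control array was at 5.63 against 4.61 for the highest dany array in Pgm2a, and at 4.69 against 3.78 in Polr2F. Their calls were lost in the authors' deposited values, with quantile normalization and with spike-in scaling.

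rin, a stress granule protein related to G3BP, fell 5.11-fold (-1.36, -1.01, -1.32 and -2.51 in control, -3.96, -3.51 and -4.24 in dany, adjusted p = 0.000149). Slik, a Ste20-family kinase, was at 0.72, 1.29, 0.79 and 1.25 in control and 0.01, -0.86 and -0.49 in dany. Its fall was 2.75-fold (adjusted p = 0.000579) and was -0.71 on slide 1 against -1.65 and -1.75 on slides 3 and 4. Both ion channels among these genes fell by similar amounts, and neither overlapped between groups. Trpml, an endolysosomal cation channel, differed by -1.98 (SE 0.20, adjusted p = 1.05e-05), and SK, a calcium-activated potassium channel, by -1.83 (SE 0.25, adjusted p = 0.000126). sqa, a kinase of the myosin light chain kinase family, was 2.73-fold lower (adjusted p = 0.001) and Snx27, a sorting nexin, 2.72-fold lower (adjusted p = 0.00843). All 6 of these calls were lost with spike-in scaling.

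Long noncoding and antisense RNA genes are numerous among the testis transcripts of flies. In the list 83 were tested, of which 22 (26.5%) were called lower and 11 (13.3%) higher, beside 15.6% and 28% of all targets. The median difference was -0.68, beside 0.06 over all targets. Among all genes with a symbol 19.7% were called lower and 19.4% higher, with a median of -0.29. Under spike-in scaling 11 of the 83 were called lower and 10 higher, beside 821 and 5661 of all 19758 targets. Of the 360 with a symbol, 22 were lower and 70 higher under that scaling. lncRNA:Yu was at 1.78, 1.36, 1.63 and 1.34 in control and -2.50, -2.88 and -2.93 in dany, a 19.7-fold fall (adjusted p = 0.000694). lncRNA:CR33948 was at -2.21, -2.75, -3.03 and -2.54 in control. In dany it was at -8.54, -8.25 and -6.20, above background on 1 of 3 arrays (log2 -5.03, adjusted p = 7.39e-06). For lncRNA:CR40465 the slides agreed closely, at -3.42, -3.40 and -3.32, yet the adjusted p was 0.0222 since the SE of 1.10 pools the spread within all 5 groups. Fitted to control and dany arrays alone, the same difference had an SE of 0.18 (adjusted p = 3.08e-06). Its call was lost without dany replicate 1 or 2.

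The same effect touched many falls. Of the targets at least 2-fold lower on all 3 slides, 737 were not called, with a median SE of 1.04 in the fit to 13 arrays. A fit to the 7 control and dany arrays called 592 of them, with a median SE of 0.22. Upwards, 77 such targets were not called. The nuclear gene of a complex I subunit homologue, ND-B14.5AL, is one of the uncalled falls. It was at 4.32, 4.29, 4.68 and 4.68 in control and at 2.86, 3.23 and 3.17 in dany, groups that did not overlap (-1.41, adjusted p = 0.235 with 13 arrays and 0.000364 with 7). In sa, aly and topi it differed from control by -3.56, -10.94 and -7.05, and the 2 topi arrays were far apart, at -5.34 and 0.24.

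Opposite shifts were found for some noncoding genes. lncRNA:CR34046 rose 17.9-fold, from -4.73, -3.87, -3.97 and -3.88 in control to -0.35, 0.31 and 0.19 in dany (adjusted p = 3.97e-07). lncRNA:CR33938 rose 9.61-fold (adjusted p = 4.23e-07). lncRNA:CR34047 stood above background on no control array and on every dany array, at least 11.4-fold higher (adjusted p = 4.31e-07). Here and below an "at least" fold sets the detected group's mean against the undetected group's, whose arrays are raised where needed to the lowest signal that stood above background. Uhg5, a host gene of small nucleolar RNAs, rose 2.93-fold (adjusted p = 0.000117). The other tested members of its family, Uhg2 and Uhg3, differed by 0.69 and 0.73 and were not called (adjusted p = 0.092 and 0.0596).

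Named rises above background on every array included signalling, ion channel and cuticle genes. Abl, a non-receptor tyrosine kinase, was at 1.67, 1.72, 1.75 and 1.72 in control and 3.37, 3.55 and 3.42 in dany. The SD was 0.04 in control and 0.09 in dany, and the rise was 3.32-fold (adjusted p = 5.86e-06). tor, the receptor tyrosine kinase Torso, was at -4.66, -4.09, -4.28 and -4.61 in control and -1.85, -1.56 and -2.10 in dany (5.95-fold higher, adjusted p = 2.63e-05). These were the 2 tested genes of the 17 listed for receptor tyrosine kinases and their signalling.

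raptor, the scaffold of the TORC1 kinase complex, rose 4.39-fold (-3.67, -2.97, -3.20 and -3.75 in control, -1.58, -0.87 and -1.34 in dany, adjusted p = 0.00018). eg, a zinc finger transcription factor of the nuclear receptor superfamily, was at -1.57, -3.05, -3.33 and -3.01 in control and -0.06, -1.11 and -1.33 in dany. As for hale, both slide 1 arrays of eg were the highest of their group. The lowest dany value still lay above the highest control value, and the rise was 3.74-fold (adjusted p = 0.00454).

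Trpm, a cation channel of the TRP family, was at -0.16, -0.20, 0.35 and -0.02 in control and 1.57, 1.84 and 1.67 in dany (3.25-fold higher, adjusted p = 4.1e-05). It rose while its relative Trpml fell. Cpr60D, a cuticle protein gene, was at -3.92, -3.60, -3.66 and -3.74 in control and -1.08, -0.58 and -0.73 in dany (7.63-fold higher, adjusted p = 1.95e-06). obst-B, which encodes a chitin-binding protein, rose 2.98-fold (adjusted p = 0.00186). Grl40a, a gustatory receptor-like gene, rose 6.71-fold (-3.26, -3.34, -2.57 and -2.96 in control, -0.52, -0.13 and -0.20 in dany, adjusted p = 1.31e-05), while Ir7b and ppk27, the other 2 tested chemoreceptor genes, were not called (-0.64 and -1.07). Sbp2, which encodes a protein that binds selenoprotein mRNAs, rose 7.52-fold (adjusted p = 0.000668), with control arrays spread from -4.24 to -1.72 and slides at 2.28, 4.26 and 2.21. With median scaling, which moves the median of all targets from 0.06 to -0.69, the calls of Abl, Trpm, obst-B and Uhg5 were lost.

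**Figure D3:**
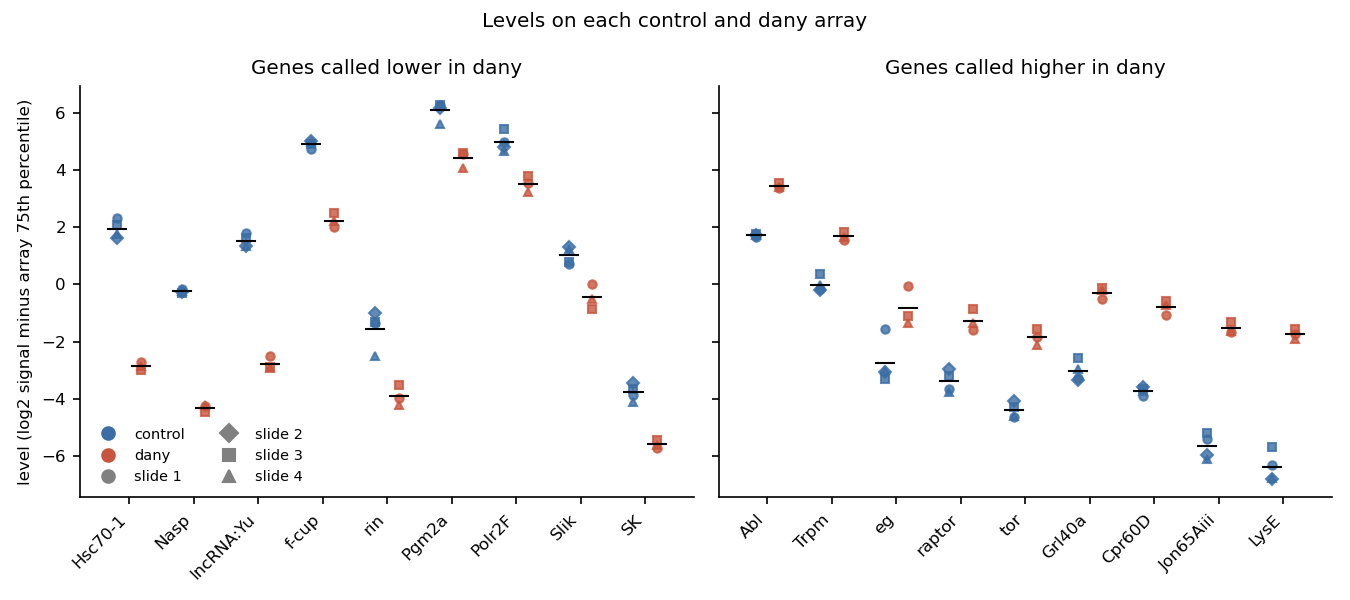
Level of 9 genes called lower (left) and 9 called higher (right) on each control array (blue) and dany array (red); the y axis is log2 signal minus the array's 75th percentile, symbols mark the slide and black bars the group mean. Within every gene the 2 groups do not overlap, and heights of different genes are not comparable.

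Digestive enzymes of the gut were nearly at background in control and well measured in dany. Jon65Aiii, a serine protease, was at -5.41, -5.97, -5.21 and -6.09 in control and -1.67, -1.32 and -1.62 in dany (17.6-fold higher, adjusted p = 6.74e-07). LysE, a lysozyme, was at -6.31, -6.80, -5.70 and -6.76 in control, above background on 2 of 4 arrays, and at -1.74, -1.57 and -1.90 in dany (25.2-fold higher, adjusted p = 5.21e-07). epsilonTry, a trypsin-like protease, was above background on no control array, and dany exceeded control at least 34.3-fold (adjusted p = 6.18e-05). All 3 tested genes of the list were called higher, and they were so under every scaling tried. Of 11 gut markers 4 were matched and 3 tested, and their summed signal was -5.18 to -4.36 on the log2 scale in control and -0.35 to -0.13 in dany. Their part in other rises was not tested.

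Some rises were of genes known from nervous tissue. Sh, the Shaker potassium channel, was at -6.93, -7.25, -7.30 and -8.23 in control, above background on none of these arrays. The dany arrays gave -4.34, -4.03 and -2.70, which is at least 11.5-fold higher (adjusted p = 7.98e-05). nAChRalpha6, a nicotinic acetylcholine receptor subunit, was at least 3.59-fold higher (adjusted p = 4.19e-05). These were the 2 tested genes of the 34 listed. Zip42C.2, a zinc transporter, was at least 6.17-fold higher (adjusted p = 0.000123), Art7, an arginine methyltransferase, at least 3.82-fold (adjusted p = 0.00452), and croc, a forkhead transcription factor, at least 3.36-fold (adjusted p = 7.06e-05). With normexp background correction the calls of Sh, nAChRalpha6, Zip42C.2, Art7, croc and lncRNA:CR34047 were lost, and croc turned to -0.05. In the authors' deposited values nAChRalpha6, Zip42C.2, Art7 and croc also lost their calls.

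With the processed signal 1381 of the 19758 tested targets were newly detected in dany. That is, they were above background on no control array and on every dany array and called higher. By the same rule, with 2 arrays each, 688, 795 and 721 were newly detected in sa, aly and topi. Of the dany targets 466, 389 and 357 were also newly detected in these mutants. With normexp background correction the count in dany was 471. Among the 1381 the median at-least fold was 7.20, and 208 reached 32-fold. Only 21 of them had a symbol. Those with the largest rises, singled out after their values were seen, were known by annotation number. CG9759 was at -6.50, -8.07, -7.43 and -7.18 in control and 0.07, 0.66 and 0.74 in dany, at least 219.8-fold higher (adjusted p = 3.52e-08). CG32551 was at least 78.5-fold higher and CG43897 at least 50.4-fold higher. Among unmatched targets FBtr0082738 rose from between -8.38 and -7.79 in control to 2.09, 0.99 and 1.77 in dany, at least 673.5-fold. FBtr0112629 was at least 515-fold higher, and it was also above control in sa, aly and topi.

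In the other direction 64 of the 19758 tested targets were no longer detected in dany. In sa, aly and topi 195, 1160 and 783 were no longer detected, among them 26, 31 and 27 of the 64. Of the 64 in dany 1 had a symbol: grh, the transcription factor Grainy head. It was at -4.59, -4.15, -3.29 and -3.95 in control and -9.14, -9.25 and -8.04 on the dany arrays, a fall of at least 16.1-fold (adjusted p = 1.48e-06). slp1, a forkhead gene, was the other tested member of that list of developmental transcription factors and was not called (-0.05, adjusted p = 0.908). The 64 had a median at-least fold of 15.2 and a range of 4.17 to 801.6. FBtr0080224 was at 1.16, 1.47, 1.73 and 1.49 in control and between -9.70 and -9.26 in dany, at least 801.6-fold lower. FBtr0079738 was at least 779.4-fold lower. Both of these targets were also below control in sa, aly and topi.

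cDNA clones used as array targets carry the library they came from in their names, which gave a grouping by tissue. Of 114 tested targets named for adult testis clones, 39 (34.2%) were called lower and 10 (8.77%) higher, beside 15.6% and 28% of all targets, with a median of -1.10. Slides 1, 3 and 4 gave medians of -1.29, -1.17 and -1.13. Of 167 adult head clones 19 (11.4%) were lower and 55 (32.9%) higher, and of 141 embryo clones 15 (10.6%) were lower and 40 (28.4%) higher. Of 49 ovary clones 8 (16.3%) were lower, near the share of all targets, and 2 (4.08%) higher. Of 24 larva and pupa clones 4 (16.7%) were lower and 10 (41.7%) higher, and of 55 S2 cell clones 6 (10.9%) and 15 (27.3%). For head clones rises did not outnumber falls in every fit, with 16 of each under the all-array filter and 19 rises against 15 falls under normexp. The testis clone median lay below the median of all targets in all the other fits run, those without 1 control or dany array included, while that of head clones lay on either side of it.

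With the 75th percentile scaling, falls were more frequent among targets with a high level in control. Targets above background on all 4 control arrays (14676) were split into 5 classes of equal size by their level on control 2, the control array that enters none of the slide differences. For each target the 3 slide differences were averaged. From the lowest class to the highest the median of these averages was 0.34, 0.25, 0.08, -0.29 and -1.13. In the highest class the slides gave -1.14, -1.14 and -1.12. In the fit to all arrays, which includes control 2, 35.9% of the highest class were called lower and 0.716% higher. In the lowest class these shares were 11.5% and 34.5%. A low median in the highest class was not particular to dany. In that fit sa, aly and topi differed from control by medians of -1.07, -1.07 and -1.51 in the highest class. Their medians were 0.42, 0.72 and 0.63 in the lowest class. In the class just below the highest they were 0.32, 0.74 and 0.87, while that of dany was -0.29. Below the highest class their medians thus did not step down as those of dany did. The pattern in dany depended on the scaling. The medians that follow are from fits that include control 2. With quantile normalization the median was -0.35 in the lowest class and -0.22 in the highest, and with the authors' deposited values it was -0.33 and -0.22. The share called lower with quantile normalization was 28.3% in the lowest class and 16.7% in the highest. Quantile normalization makes the distributions of all arrays alike, and in the deposited values the 25th percentile was 5.49 to 5.58 and the 75th percentile 10.68 to 10.76 across arrays. With spike-in scaling the median ran from 1.04 in the lowest class to -0.46 in the highest.

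**Figure D4:**
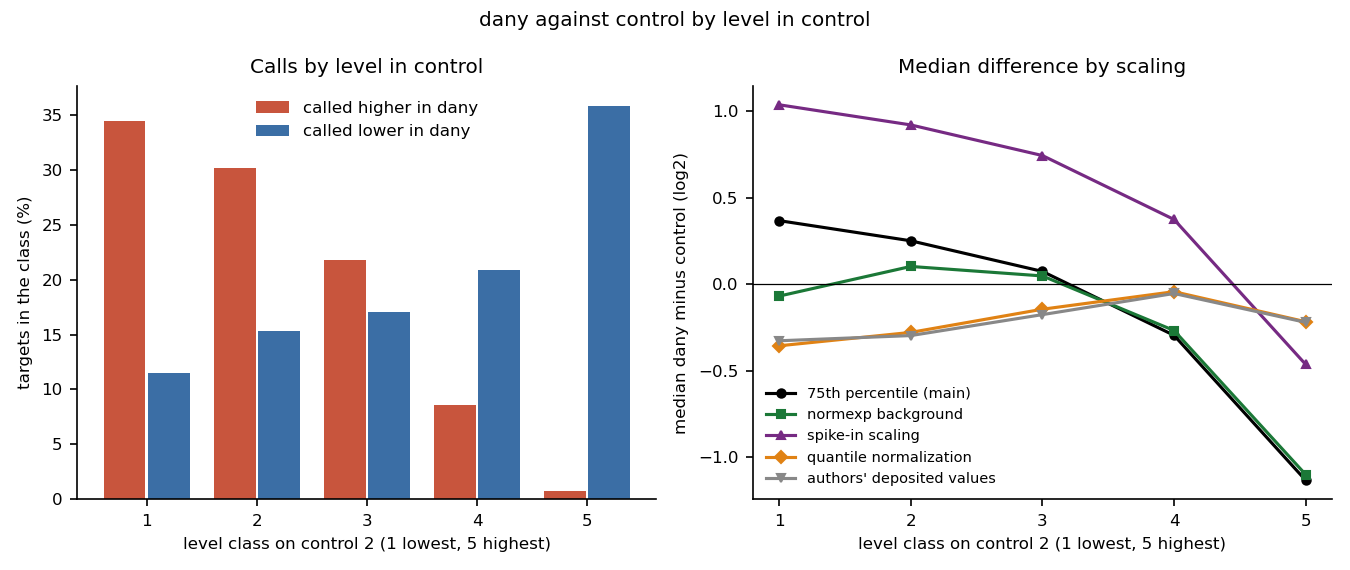
Left: percent of targets called higher (red) or lower (blue) in dany for each of 5 classes of the level on control 2. Control 2 also enters the fits shown in both panels. Right: median difference between dany and control (log2) by class under 5 scalings; the lines for 75th percentile, normexp and spike-in scaling reach their lowest value in the highest class, and those for quantile normalization and the deposited values do not.

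Counts in the housekeeping lists were small. Of 5 cytosolic ribosomal protein genes 1 was called lower (RpS7, -1.02, adjusted p = 0.00207) and none higher, near the 15.6% of all targets called lower, and RpS29 at -0.84 (adjusted p = 0.00598) missed the 2-fold limit. Of 11 mitochondrial genes (ribosome, import and respiration) ND-B17.2, a complex I subunit, was called lower (-1.01, adjusted p = 0.0014) and Tim17a2, of the inner membrane import translocase, higher (1.09, adjusted p = 0.000837). All 3 of these calls lie next to the 2-fold limit, and each was lost in several of the other fits. Neither tested vacuolar proton pump gene was called. wuc, a relative of a tMAC subunit and the 1 tested gene of 22 listed spermatocyte transcription factors, differed by -0.35 (adjusted p = 0.263), with overlapping groups.

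Whether a change differed from that in the arrest mutants was tested directly, with their mean (sa, aly and topi) as the reference for dany. By this test 12431 targets (62.9%) were called, 5768 (29.2%) higher in dany and 6663 (33.7%) lower. The same dany arrays enter this test and the comparison with control. Some genes called higher in dany against control had levels below control in the others. tor differed from control by 2.57 in dany and by -0.35, -2.60 and -2.69 in sa, aly and topi, and dany was above their mean by 4.45 (adjusted p = 2.24e-07). eg differed by 1.90 in dany and by -1.39, -3.48 and -2.63 in the others (dany above their mean by 4.40, adjusted p = 6.01e-06). Grl40a was above that mean by 3.84 (adjusted p = 5.09e-07). The digestive protease Jon65Aiii was at 0.05, -0.44 and -0.31 from control in the others, and dany was above their mean by 4.37 (adjusted p = 2.25e-07). LysE rose in topi too, by 6.33 (adjusted p = 2.76e-07). Art7 differed from control by -0.06, 6.19 and 8.52 in sa, aly and topi, and dany was below their mean (-2.68, adjusted p = 0.000569). Abl differed by 0.64, 1.39 and 1.85 in sa, aly and topi. For Abl dany was above their mean by 0.44 (adjusted p = 0.0196), short of the 2-fold limit.

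Falls differed as well. eIF3l, a translation initiation factor subunit named after its values were seen, was at 0.59, 0.55, 0.31 and 0.37 in control and -0.56, -0.68 and -0.91 in dany. It fell by 1.18 on the log2 scale in dany and differed by 1.62, 2.49 and 2.41 in sa, aly and topi, so that dany lay 3.35 below their mean (difference -3.35, adjusted p = 3.56e-08). Its call against control was lost with spike-in scaling. Slik (-2.34, adjusted p = 8.28e-06) and Cyp1 (-3.24, adjusted p = 6.05e-06) were also lower in dany than in the other mutants. Nasp differed from control by -2.64, -7.97 and -6.35 in sa, aly and topi, so dany was above their mean by 1.58 (adjusted p = 0.0108). lncRNA:Yu was above that mean by 2.50 (adjusted p = 0.00815). The 2 topi arrays were far apart for both genes, at -8.04 and -5.14 for Nasp and at -8.12 and -3.72 for lncRNA:Yu. Hsc70-1 was above it by 1.18 (adjusted p = 0.0049). For rin, Polr2F and grh the difference from the other mutants was not past the limit (-0.41, -0.04 and -0.78, with SE 0.31, 0.21 and 0.34).

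**Figure D5:**
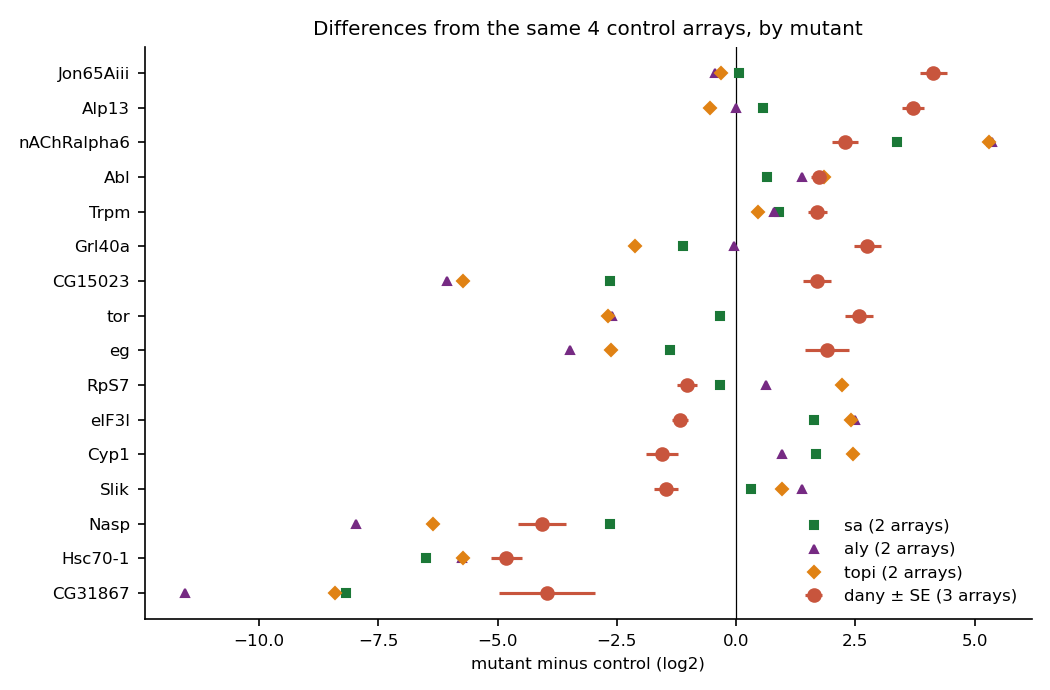
Difference from the 4 control arrays (log2, x axis) for 16 genes in dany (red, with SE) and in sa, aly and topi (2 arrays each), all against the same controls. tor, eg, CG15023 and Grl40a lie right of 0 in dany and left of it in the other 3 mutants, and eIF3l, Cyp1 and Slik the other way round.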

How the data were processed

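RNA of pooled testes was measured on 1-colour Agilent arrays. Per the file headers, the authors used Agilent Feature Extraction (version 10.7.3.1, protocol GE1_107_Sep09, design annotated to dm3) to obtain linear intensity values: a background-subtracted processed signal per spot, with median and background signals. The deposited series table holds log2 values with column medians of 7.89 to 7.90, whose normalization is not given in the sources used here, and it served as an alternative. Other deposited columns hold flags of another kind (0 or 1) that mark outliers, saturation and detection. Each array had 45019 spots, 1417 of them control spots and none saturated.

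Spots of a probe were averaged, and the 75th percentile of each array was subtracted on the log2 scale. Probes detected throughout 1 or more groups were kept, and each target was read from its brightest kept probe. limma 3.58.1 (R 4.3.3) fitted 1 mean per group to all 13 arrays, two-sided with Benjamini-Hochberg adjustment (8 residual and 2.42 prior degrees of freedom, median SE 0.306). Precision is limited by the small number of arrays. Names came from a RefSeq gene table of another build than dm3, so no positions are given. It matched 546 probes to 1 gene, 3 to several and 31613 to none. A named gene may have further probes among those unmatched, which were not read for it. No sequences were printed. The normexp alternative used the median foreground signal, as no mean signal column was present.

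Members and lists were chosen with earlier results of these data known. Named genes were, among symbols that are not bare annotation numbers (numbered noncoding genes count as such), the 12 largest rises and falls detected in both groups, the 6 largest each way by at-least fold, the tested members of lists by symbol, and the 3 largest called rises and falls of lists by prefix. For unmatched targets the 2 largest each way were named. The result of 1 gene that the rule names is not reported here. Of 27 lists 18 had a tested gene. The others, for early germ cells, meiotic cell cycle, spermatocyte and axoneme structure, sperm chromatin, male-specific transcripts, muscle and pigment sheath, accessory gland, fat body and blood cells, and proteasome, had none.

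After group means were removed, control and dany arrays of the same slide correlated at r of 0.671, 0.603 and 0.519. Arrays with the same replicate number on different slides correlated at 0.489 (same scan day) and -0.03 (different scan days). Scan day is mixed with number in the first of these values. With group means removed, correlations that share an array are not independent. Whether the replicate numbers pair the samples was therefore not tested. Alternatives changed the scaling, background correction, filter, blocks and arrays used.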

Additional observations from a re-analysis of the deposited data

Results flagged for a closer look

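Dixon's test marks a control array far from the other 3, and chance marks about 1 in 20 groups. Of 78 named genes 6 were marked, 5 of them in control 1. In control 1 lncRNA:CR34046 was at -4.73 while the others were at -3.97 to -3.87, and slp1 was at -4.58 while the others were at -3.86 to -3.73. In the same array CG13159 was at -5.60 (others -7.34 to -7.07), NimC3 at -6.02 (others -8.01 to -7.70) and Cyp9c1 at -3.18 (others -4.70 to -4.65). In control 4 sqa was at -3.89 (others -3.21 to -3.10). Leaving out control 1 did not end the calls of lncRNA:CR34046, CG13159 or NimC3. Cyp9c1, a cytochrome P450 gene, differed by 1.85 and was not called (adjusted p = 0.0527). It was called without control 1 and also with slide as a block (1.69, adjusted p = 0.000664).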

How the results depend on the processing

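The count of targets called (8627) became 4568 when a probe had to be above background on all arrays, which tests 12179 targets. Newly detected targets numbered 471 with normexp background correction, against 1381. Calls against the mean of the other mutants (12431) numbered 7169 with the all-array filter and 7415 with spike-in scaling. Leaving out 1 array at a time gave 8205 to 8696 calls, 1353 to 1608 newly detected targets, 64 to 91 no longer detected and 11685 to 12500 calls against the other mutants. With the replicate number as a block 8793 targets were called, 8226 of them called the same way without it, and the calls of lncRNA:CR40465, ND-B17.2, RpS7 and Tim17a2 were lost. With slide as a block 5776 were higher and 3442 lower. The share of calls that were rises was 64.2%, and it was 33.5% with median scaling, 87.3% with spike-in scaling, 51.5% with normexp and 51.8% with the all-array filter. The median over all targets was -0.69 with median scaling, 0.73 with spike-in scaling, -0.24 with normexp, 0.23 with the percentile of detected probes, -0.07 with ribosomal protein gene scaling and 0.06 as reported. croc reversed to -0.0495 with normexp (adjusted p = 0.791). The cause was not tested. Of 70 named calls 20 were lost with spike-in scaling, 19 with normexp, 16 in the deposited values and 7 with median scaling. Dim probes near background limit the rises of genes not detected in control.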

Other observations

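Further called genes, chosen after their values were seen, fall outside the rule for names. Alp13, an alkaline phosphatase gene, was at -5.27, -5.57, -5.16 and -5.48 in control and -1.88, -1.48 and -1.64 in dany (log2 difference 3.71, adjusted p = 3.78e-07). It differed from control by 0.56, 0.00 and -0.54 in sa, aly and topi, and dany was above their mean by 3.70 (adjusted p = 1.89e-07). LUBEL, a linear ubiquitin ligase, differed by 3.98 (adjusted p = 6e-06) and Tango14 by 4.62 (adjusted p = 2.17e-06), each above background on 1 of 4 control arrays. asRNA:CR43463 was at 1.31, 1.62, 1.67 and 1.52 in control and -1.61, -1.27 and -1.63 in dany (8.20-fold lower, adjusted p = 6.95e-07), and dany was below the mean of the other mutants (-2.31, adjusted p = 2.34e-06).

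CG15023 rose from -1.81, -2.74, -2.14 and -2.21 to -0.43, -0.69 and -0.47 in dany (adjusted p = 0.000703), while it differed from control by -2.65, -6.05 and -5.72 in sa, aly and topi. Its call against control was lost with median scaling. CG31867 was at 2.79, 3.09, 3.20 and 3.13 in control and -1.20, -0.72 and -0.80 in dany (adjusted p = 0.00668), and dany was above the mean of the other mutants by 5.42 (adjusted p = 0.000398), with the 2 topi arrays far apart at -8.32 and -2.38. lncRNA:Hsromega, the heat shock RNA omega gene, was at 1.25, 1.94, 2.25 and 1.77 in control and 0.43, 0.80 and 0.70 in dany (2.23-fold lower, adjusted p = 0.0172). Its call was lost without dany replicate 1 and in 4 of the fits with other scaling or values.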
